A study of Homo sapiens with 21 samples.

Results

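The major histocompatibility complex (MHC) class II genes, the invariant chain CD74 and the class II transactivator CIITA were followed in THP1 cells, a human monocytic acute myeloid leukemia line, after knockdown of IRF2BP2 or knockout of ATF7 or JDP2. These 10 genes were chosen by symbol, with earlier results of these data known, from a table of 20423 genes and 19 libraries: HLA-DRA, HLA-DRB1, HLA-DRB5, HLA-DPA1, HLA-DPB1, HLA-DQB1, HLA-DMA, HLA-DMB, CD74 and CIITA. All 10 had a row in the table, and 5 of them had a mean of at least 10 normalized counts over the 19 libraries (CD74, HLA-DRB1, HLA-DRB5, CIITA and HLA-DMA).

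ATF7 and JDP2 belong to the basic leucine zipper family of transcription factors, and IRF2BP2 is a cofactor of transcription. For the knockdown, hairpins against IRF2BP2 were carried in the pLKO.1 vector, with 3 libraries for each of 2 hairpins (shRNA 1 and shRNA 2) and 2 libraries of an shRNA control. For the knockouts, Lenti-CRISPRv2 constructs were used and single-cell clones were isolated by limiting dilution, with 2 libraries for each of 2 clones per gene and 2 libraries of a knockout control. Each clone is 1 line, so a difference between a clone and the control can belong to the clone. There was also 1 wild-type library, and together with the shRNA and knockout controls it makes 5 control libraries. All groups were THP1 cells grown in the same medium, and no stimulus, such as interferon gamma, is named for any group. Nothing in the labels ties replicates to separate cultures, so each p-value reflects only how far these libraries differ from each other, and that spread may be technical.

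A class II molecule is a pair of an alpha and a beta chain (HLA-DRA with HLA-DRB1 or HLA-DRB5, HLA-DPA1 with HLA-DPB1, HLA-DQA1 with HLA-DQB1) that presents peptides from endosomes to CD4 T cells. CD74, the invariant chain, fills the peptide groove of new molecules and steers them to endosomes, where cathepsins such as CTSS cut it down and HLA-DM, the pair of HLA-DMA and HLA-DMB, exchanges the last fragment for a peptide. CIITA is the coactivator on which class II transcription depends. It binds no DNA itself and is recruited by the RFX complex on the X box and by NF-Y on the Y box of the class II promoters. Interferon gamma induces CIITA in monocytes.

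Promoter sequences from RefSeq (GRCh38.p14) were matched by symbol for 8 of the 10 genes. The 150 bases before the start of transcription are shown for the HLA-DRB genes, which had the largest log2 differences of these genes under the knockdown, and for HLA-DMA. Capitals mark the letters ACTGATGAT, which lie in the X box region, and CTGATTGG, an inverted CCAAT box as in the Y box. All are on chromosome 6, on the minus strand, and read 5′ to 3′ toward the gene.
HLA-DRB1, chr6:32589849-32589998: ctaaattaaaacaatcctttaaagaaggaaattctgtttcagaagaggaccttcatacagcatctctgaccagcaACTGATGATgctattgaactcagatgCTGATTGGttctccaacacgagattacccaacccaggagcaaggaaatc
HLA-DRB5, chr6:32530288-32530437: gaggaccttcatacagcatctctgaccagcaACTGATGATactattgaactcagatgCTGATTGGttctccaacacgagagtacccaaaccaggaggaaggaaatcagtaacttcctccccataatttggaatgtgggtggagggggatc
HLA-DMA, chr6:32953098-32953247: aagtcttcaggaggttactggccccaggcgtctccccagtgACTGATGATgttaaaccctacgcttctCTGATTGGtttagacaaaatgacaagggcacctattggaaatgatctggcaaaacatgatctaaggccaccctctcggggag

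The HLA-DRB1 and HLA-DRB5 windows of 300 bases aligned over 247 columns, of which 230 were identical (93.1%). Over the 34 bases from the first to the last capital they differed at 1 position. These letters were picked after the HLA-DRB promoters had been read, so their presence there is a description. On either strand, ACTGATGAT was found in 0.1908% of 35116 promoter windows of 300 bases, and in windows of 4 of the 8 matched genes (HLA-DRB1, HLA-DRB5, HLA-DMA and HLA-DMB). CTGATTGG was found in 3.9669% of windows, and in 4 of the 8 genes (HLA-DRB1, HLA-DRB5, HLA-DMA and HLA-DQB1). Both were in the same window in 0.0171% of windows, and in 3 of the 8 genes, those printed here. The letters TGACGTCA, the cAMP response element to which ATF7 and JDP2 can bind, were in 1.8482% of windows and in none of these 8 genes. The shorter TGACGT, which TGACGTCA contains, was in 7.9821% of windows and in 2 of the 8 genes, HLA-DMB and HLA-DQB1. The AP-1 letters TGACTCA were in 4.9493% of windows and in 1 gene, HLA-DPB1. A match is not a binding site, and no binding was measured in these data.

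On the annotation of GRCh38, the HLA genes lie on chromosome 6, among them HLA-DRA at chr6:32439842-32445046, HLA-DRB5 at chr6:32517343-32530287 and HLA-DRB1 at chr6:32578769-32589848. CD74 lies at chr5:150401637-150412929 and CIITA at chr16:10866222-10943021. HLA-DRB1 and HLA-DRB5 are near-identical in sequence, and the counting could have split or dropped shared reads. HLA-DPA1 overlaps HLA-DPB1 on the opposite strand, HLA-DQB1 overlaps HLA-DQB1-AS1, HLA-DMA overlaps BRD2, and CIITA overlaps DEXI. HLA-DMA and HLA-DMB also overlap the protein-coding gene AL645941.2 (chr6:32937364-32953122) on the same strand, where strand cannot separate reads. The part of this overlap in the low counts of HLA-DMA and HLA-DMB was not tested. Whether counting used strand is not given in the sources used here, and reads of such pairs could not be told apart.

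Depth was 28.7 to 60.2 M reads in genes per library. In 3 libraries a large share of genes differed over 2-fold from their median level: 48.5% in IRF2BP2 shRNA 1 replicate 3, 25.6% in IRF2BP2 shRNA 2 replicate 3 and 38.2% in JDP2 knockout clone 1 replicate 2, against 3.18% to 14.8% in the others. IRF2BP2 itself was at 16973 and 18382 normalized counts in the shRNA control libraries, at 9456, 11109.7 and 9802 with shRNA 1, and at 12587, 16649 and 25651 with shRNA 2. The library labelled IRF2BP2 shRNA 2 replicate 3 thus had more IRF2BP2 message than either control, against its label. As a group the shRNA 2 libraries (18296 ± 6686, SD, n = 3) were not below the shRNA control (17677 ± 997, n = 2), so comparisons of shRNA 2 are those of libraries labelled as a knockdown. Without shRNA 2 replicate 3, the log2 differences of the knockdown from the shRNA control were 1.48 for HLA-DRB5 (limma adjusted p = 0.0266), 1.54 for HLA-DRB1 (0.0183), 1.22 for HLA-DMA (0.374), −0.11 for CD74 (0.920) and −0.83 for CIITA (0.323), so the sign turned for CD74 and the call changed for HLA-DRB1. ATF7 message was at 645, 511, 617 and 363 in the ATF7 knockout libraries against 299.9 and 537 in the knockout control. JDP2 message was at 3158, 5693, 4652 and 5368 in the JDP2 knockout libraries against 5085 and 3438. Neither was lower as a group, and the level of a message does not test whether an edit disrupts the protein. Of 12 monocyte markers, all were detected and 11 averaged 10 or more normalized counts in the 5 control libraries, while the monocyte marker CD14 was between 3.75 and 16.3 there.

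As counted here and per kilobase of exon, class II message in the control cells came almost entirely from CD74 and the HLA-DRB genes. Whether reads of the other class II genes were lost in mapping or counting was not tested. Per kilobase of exon, CD74 was highest at 607 ± 146 normalized counts (SD, n = 5), followed by HLA-DRB1 at 369 ± 133 and HLA-DRB5 at 189.8 ± 32.9. CIITA was at 17.3 ± 2.19 and HLA-DMA at 3.86 ± 2.2. The length used was the union of all annotated exons of a gene. It was 20.757 kb for CIITA, against 3.184 kb for CD74 and 1.26 kb for HLA-DRB5. A level per kilobase is too low where the transcripts present are shorter than this union, which was not tested. The other 5 genes were at 1.6 or below, with SDs as large as or larger than their means, so their order was not resolved. The ranges of CD74 (438 to 812) and HLA-DRB1 (246 to 574) overlapped, so their order was not resolved either. Those of HLA-DRB1 and HLA-DRB5 (154 to 229.7), of HLA-DRB5 and CIITA, and of CIITA and HLA-DMA did not overlap. In the IRF2BP2 knockdown, HLA-DRB1 (938 ± 503, n = 6) and CD74 (918 ± 482) were at nearly the same level per kilobase and HLA-DRB5 was at 614 ± 224.

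**Figure D1:**
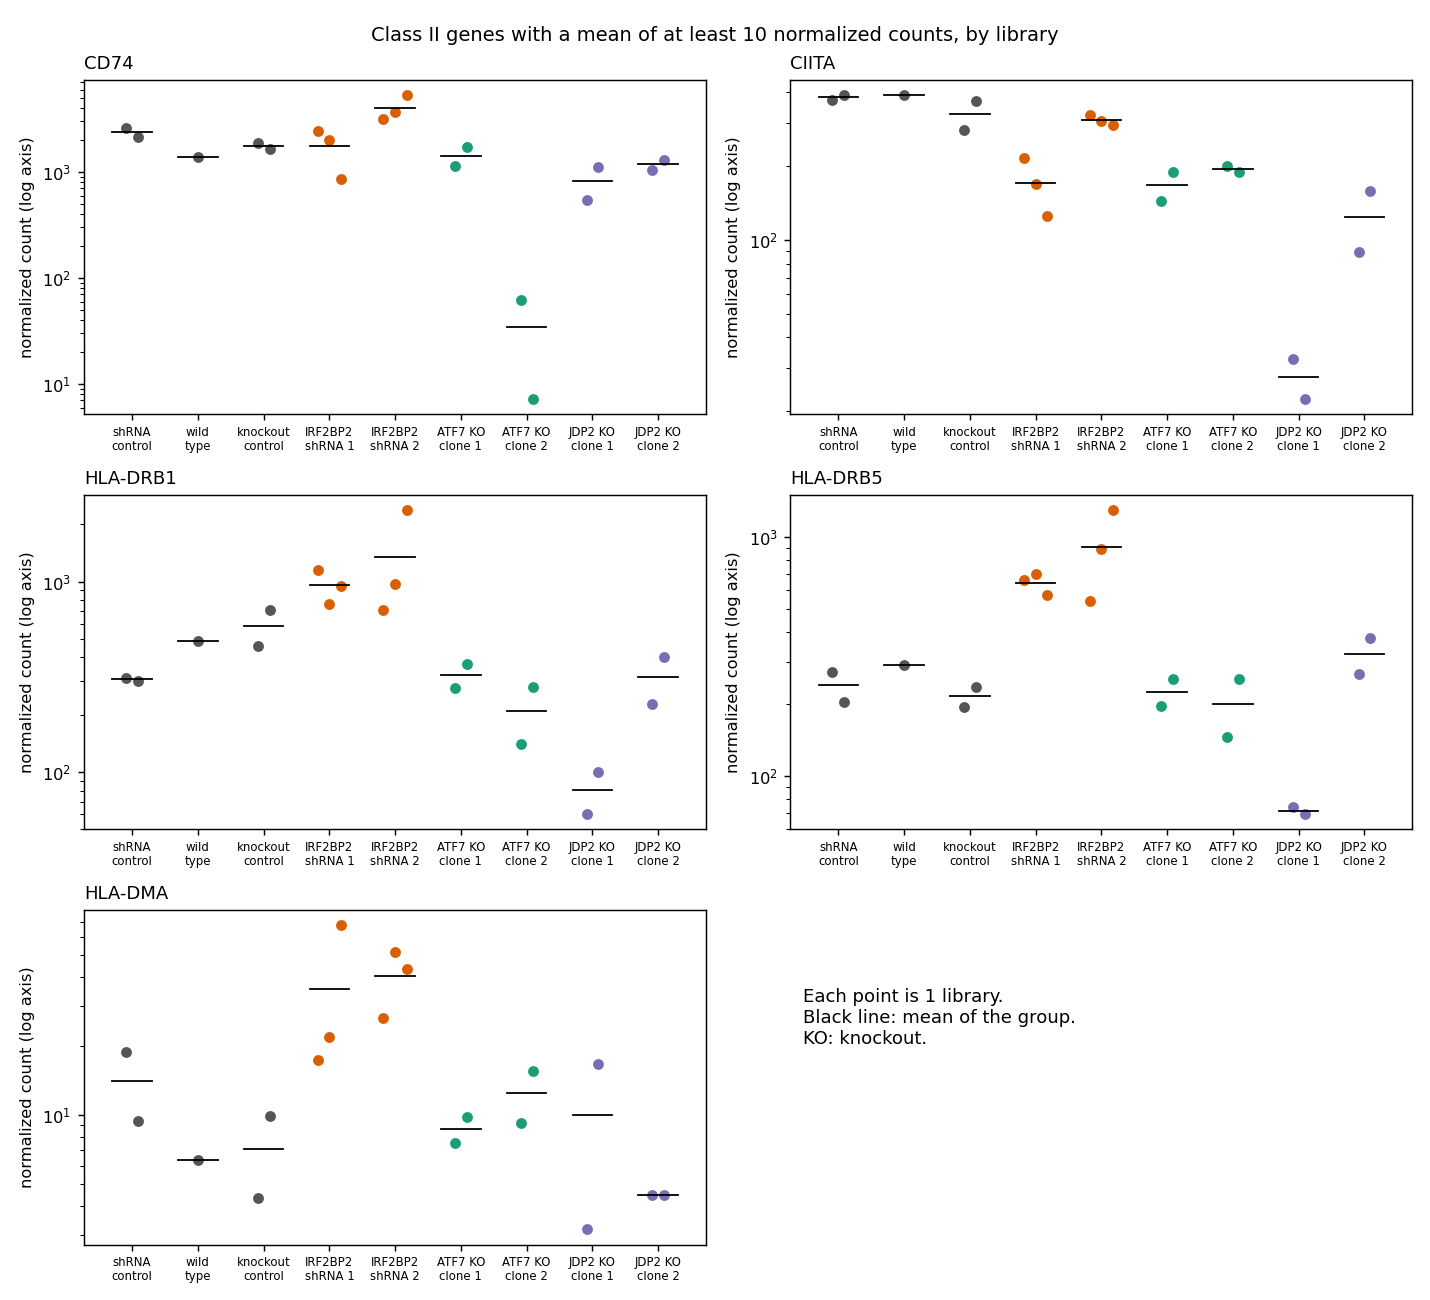
Normalized counts (log axis) of the 5 genes with a mean of at least 10, by group. Each point is 1 library and each line a group mean. HLA-DRB1 and HLA-DRB5 are higher in all 6 knockdown libraries than in the 2 shRNA controls, CD74 is at 62.5 and 7.2 in ATF7 knockout clone 2, and CIITA is at 32.7 and 22.4 in JDP2 knockout clone 1.

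HLA-DRA, which encodes the only alpha chain that pairs with the HLA-DRB products, was nearly undetected. It had 70 reads over all 19 libraries, against 11694 for HLA-DRB1 and 7925 for HLA-DRB5. It had no read in 9 libraries, and its highest count was 20 reads (20.2 normalized), in IRF2BP2 shRNA 2 replicate 2, where the HLA-DRB genes together had 1842 reads. The 3 control groups held 2, 6, 0, 0 and 4 reads of HLA-DRA (shRNA control, wild type, knockout control), the shRNA 1 libraries 4, 6 and 8, and the shRNA 2 libraries 14, 20 and 0. Both libraries of ATF7 knockout clone 2 and both of JDP2 knockout clone 1 were at 0, where a count of 0 allows up to 3 reads. The remaining low genes were HLA-DPA1 with 90 reads over all libraries, HLA-DQB1 with 74, HLA-DMB with 36 and HLA-DPB1 with 9. None of these 5 genes passed the filter in any comparison. Without the filter none was called by limma in any comparison either, with a lowest adjusted p of 0.467.

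**Figure D2:**
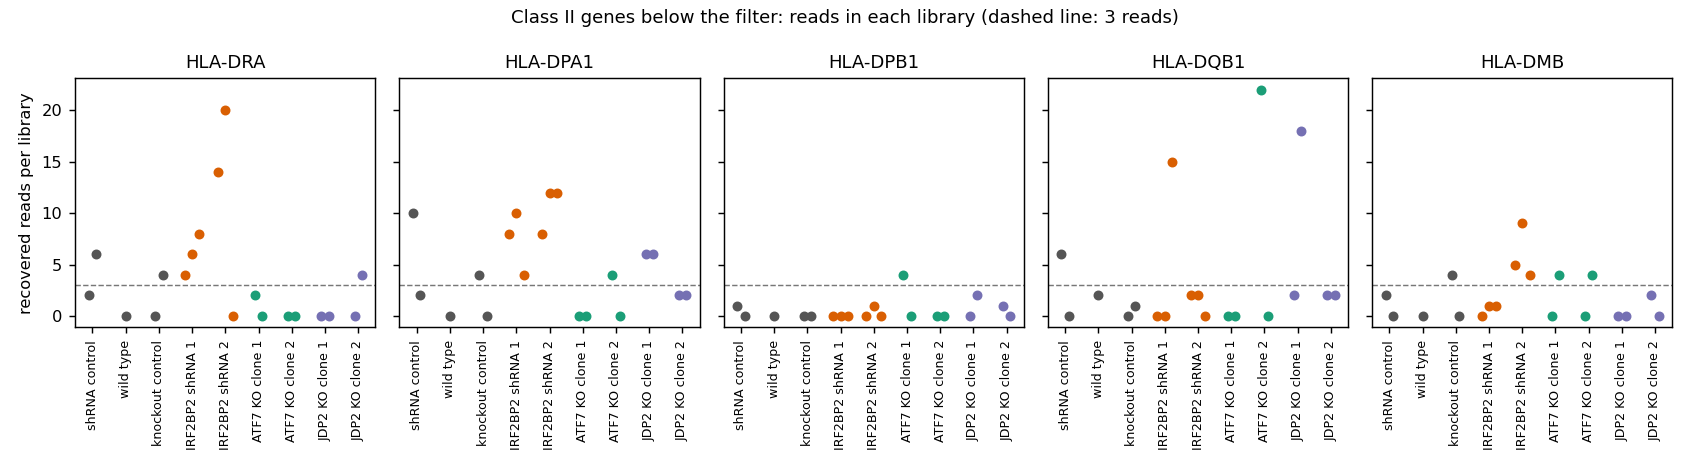
Recovered reads per library of the 5 genes below the filter, by group, with a dashed line at 3 reads. HLA-DRA reaches 20 reads in 1 IRF2BP2 shRNA 2 library, HLA-DQB1 has 22, 18 and 15 reads in 3 single libraries, and HLA-DPB1 never exceeds 4.

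HLA-DQB1, the beta chain of HLA-DQ, was concentrated in 3 libraries. It had 22 reads in ATF7 knockout clone 2 replicate 1, 18 in JDP2 knockout clone 1 replicate 2 and 15 in IRF2BP2 shRNA 1 replicate 3, and at most 6 in any other library. HLA-DQA1, which encodes its partner chain, had 16 reads in ATF7 knockout clone 2 replicate 1 and at most 2 elsewhere. In that library the 6 T cell markers summed to 140 normalized counts, against 22.3 to 44.1 in the controls. The part of other cells in these reads was not tested. Of 12 other class II loci listed, 5 had a row. HLA-DOB, a subunit of the HLA-DO inhibitor of HLA-DM, ranged from 1.99 to 18.7 normalized counts, and HLA-DOA, HLA-DQA2 and HLA-DQB2 were at 0 in every library. None of the 5 passed the filter.

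The first comparison set the 6 libraries labelled as IRF2BP2 knockdown against the shRNA control. Mean IRF2BP2 message was below that control (17677) with shRNA 1 (10122) and not with shRNA 2 (18296). HLA-DRB5 rose, HLA-DRB1 was above the shRNA control in every knockdown library without passing the test, HLA-DMA was above it in 5 of 6, CD74 did not differ detectably, and CIITA was below the control in every library without passing the test. Taken by hairpin against the shRNA control, HLA-DRB5 was called with shRNA 2 and not with shRNA 1. The part of the IRF2BP2 level in these differences was not tested. In bulk samples such as these, fewer cells of a type and less RNA per cell cannot be told apart. In this comparison 1.54% of the 12738 genes tested were called higher and 1.79% were called in either direction, at a Benjamini-Hochberg adjusted p under 0.05 from limma on log2(normalized count + 1). Of the 10 genes, 5 passed the filter, 1 was called higher and 0 lower. The median log2 difference of the 5 was 1.29, beside −0.03 over all genes tested.

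HLA-DRB5 was at 273 and 204 normalized counts in the shRNA control, at 657, 696 and 571 with shRNA 1, and at 537, 889 and 1292 with shRNA 2. The groups did not overlap: every knockdown library was above both controls. The means were 774 ± 282 (SD, n = 6) and 238.5 ± 48.4 (n = 2), a log2 difference of 1.64 ± 0.36 (SE; limma adjusted p = 0.0373). The adjusted p was over the threshold without shRNA control replicate 1 (0.312), shRNA control replicate 3 (0.406), shRNA 1 replicate 1 (0.0599), shRNA 1 replicate 2 (0.0801) or shRNA 2 replicate 2 (0.0847). It was also over the threshold with no filter (0.0547), with edgeR (0.0673) and with a replicate block (0.112).

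HLA-DRB1, the beta chain gene at the higher level, was at 313 and 302 in the shRNA control, at 1153, 758 and 953 with shRNA 1, and at 712, 968 and 2372 with shRNA 2. All 6 knockdown libraries were above both controls, and shRNA 2 replicate 3 was far above the others. The log2 difference of 1.77 ± 0.41 had a limma adjusted p of 0.0503 and was not called. Without shRNA 2 replicate 3 it was called, at 1.54 with an adjusted p of 0.0183, and without shRNA 1 replicate 3 at 1.80 with an adjusted p of 0.025. With the reads of HLA-DRB1 and HLA-DRB5 added before the test, the log2 difference was 1.72 with an adjusted p of 0.039. Controls of the other arm stood higher, with HLA-DRB1 at 459 and 706 in the knockout control and 489.7 in the wild type, and shRNA 2 replicate 1 at 712 was close to the highest of these (706).

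HLA-DMA, a subunit of the peptide exchanger, was at 18.9 and 9.37 in the shRNA control, at 17.4, 22 and 67.5 with shRNA 1, and at 26.5, 51.4 and 43.4 with shRNA 2. The groups overlapped, since 1 shRNA 1 library lay below the higher control. The log2 difference was 1.29 ± 0.61 (limma adjusted p = 0.376). HLA-DMB, the other subunit, had 5, 9 and 4 reads in the shRNA 2 libraries and at most 1 in the shRNA 1 libraries.

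CD74 was at 2584 and 2162 in the shRNA control, at 2452, 2026 and 861 with shRNA 1, and at 3155, 3697 and 5338 with shRNA 2. The hairpins lay on opposite sides of the control, apart from shRNA 1 replicate 1, which fell between the control libraries. The log2 difference for both hairpins together was 0.10 ± 0.54 (limma adjusted p = 0.953).

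CIITA was at 372 and 389.8 in the shRNA control, at 216, 168 and 125 with shRNA 1, and at 324, 304 and 293 with shRNA 2. All 6 knockdown libraries were below both controls, with the shRNA 1 libraries lowest. The log2 difference was −0.75 ± 0.39 (limma adjusted p = 0.427). Against the shRNA control, the HLA-DRB genes were thus higher in the same 6 libraries in which CIITA was lower. Of the other controls, knockout control replicate 1 (280.4) was below every shRNA 2 library for CIITA. Against all 5 controls, CIITA with shRNA 2 was not called (log2 −0.22, limma adjusted p = 0.638).

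The hairpins were compared directly, and no gene differed between them in the limma fit. Of 12738 genes tested 0% were called, with 917 at an unadjusted p under 0.05, and on recovered reads edgeR called 0 and DESeq2 25. Of the 5 class II genes that passed the filter none was called. CD74 was higher with shRNA 2 by 1.29 ± 0.40 on the log2 scale (adjusted p = 0.589) and CIITA by 0.88 ± 0.31 (adjusted p = 0.589), and in neither gene did the hairpins' libraries overlap. HLA-DRB1 (0.32 ± 0.41) and HLA-DRB5 (0.41 ± 0.35) differed by about their standard errors. Each hairpin against the control was a comparison added after the values were seen: with shRNA 2, HLA-DRB5 was called (log2 1.85 ± 0.39, adjusted p = 0.0392, beside 1.3% of genes called higher; 0.0645 to 0.288 without shRNA control replicate 1 or 3, shRNA 1 replicate 2, or shRNA 2 replicate 2 or 3, 0.0575 with no filter and 0.121 with a replicate block), and with shRNA 1 it was not (1.43 ± 0.39, adjusted p = 0.104, beside 1.05%). Against all 5 controls, where 10.1% of genes were called with shRNA 1, HLA-DRB5 was called higher with shRNA 1 too (log2 1.43, limma adjusted p = 0.00627). There CIITA was called lower with shRNA 1 (−1.10, limma adjusted p = 0.012).

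With all 5 control libraries in place of the 2 shRNA controls, 7.54% of genes were called higher in the knockdown, and 3 of the 5 class II genes tested were. These were HLA-DRB5 (log2 1.64 ± 0.24, adjusted p = 0.000503), HLA-DRB1 (1.28 ± 0.31, adjusted p = 0.0139) and HLA-DMA (1.85 ± 0.46, adjusted p = 0.0182). CD74 (0.43 ± 0.36, adjusted p = 0.472) and CIITA (−0.66 ± 0.26, adjusted p = 0.104) were not called. The same 3 genes were past an adjusted p of 0.05 in the authors' deposited table for the knockdown, in which 10.6% of genes were higher: there HLA-DRB5 had a log2 fold change of 1.49, HLA-DMA 1.51 and HLA-DRB1 1.17, while CD74 had 0.40 and CIITA −0.51.

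**Figure D3:**
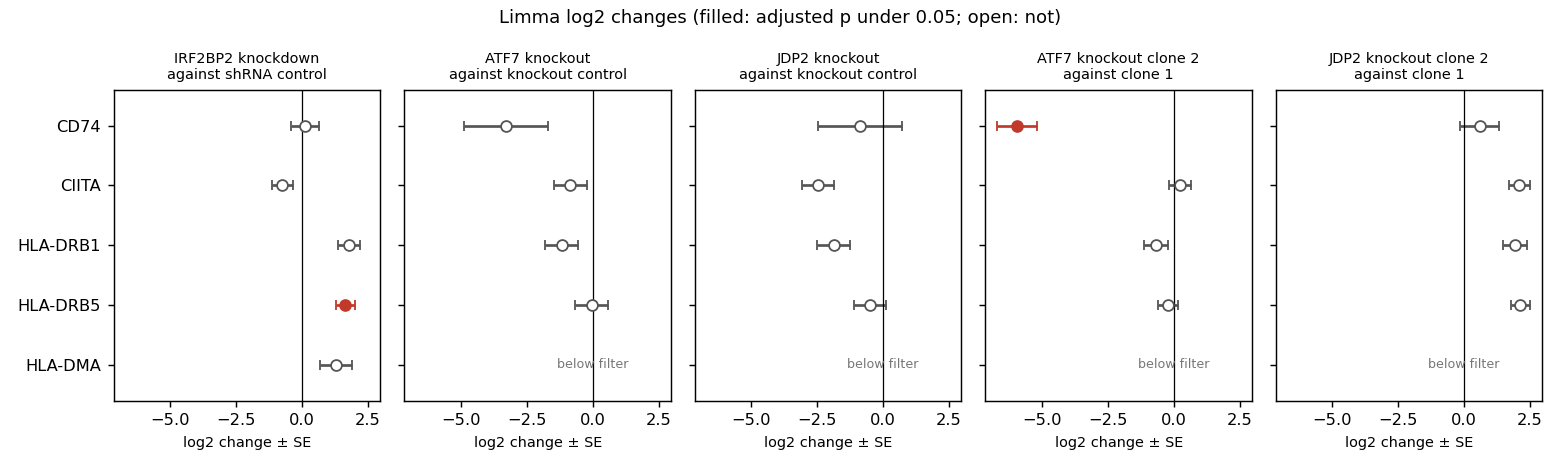
Limma log2 differences ± SE of 5 class II genes in 5 comparisons (rows are genes). HLA-DMA was below the filter in the knockout comparisons and has no point there. Filled points passed an adjusted p of 0.05: HLA-DRB5 at 1.64 in the IRF2BP2 knockdown and CD74 at −5.94 in ATF7 knockout clone 2 against clone 1. All other points are open.

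The second comparison asked what loss of ATF7 did. CD74 message was nearly lost in 1 of the 2 ATF7 knockout clones and not in the other, and no class II gene was called for the knockout as a whole. In this comparison 0.25% of the 13208 genes tested were called, all lower, and of the 4 class II genes tested (CD74, CIITA, HLA-DRB1 and HLA-DRB5) none was. At an unadjusted p under 0.05 the count was also 0 of 4, beside 936 of the 13208 genes tested. Neither edgeR nor DESeq2 called any of the 4. The median log2 difference of the 4 was −1.01, beside 0.04 over all genes.

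CD74 was at 1888 and 1632 normalized counts in the knockout control, at 1141 and 1714 in ATF7 clone 1, and at 62.5 and 7.2 in ATF7 clone 2. Clone 1 overlapped the control, and both libraries of clone 2 were below every other library of the series. The counts behind these values in clone 2 were 54 and 6 reads. For both clones together the log2 difference was −3.30 ± 1.59 (limma adjusted p = 0.714).

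Between the ATF7 clones, 0.151% of genes were called lower in clone 2, and CD74 was the 1 class II gene of 4 called. Its means were 34.8 ± 39.1 in clone 2 and 1427 ± 405 in clone 1 (SD, n = 2 each), a log2 difference of −5.94 ± 0.75 (limma adjusted p = 0.00863). Without knockout control replicate 1 (adjusted p = 0.0788), knockout control replicate 2 (0.0791) or ATF7 clone 1 replicate 2 (0.078) it was not called, and over all libraries left out in turn the log2 difference stayed between −7.41 and −4.46. Against the knockout control, a comparison added after the values were seen, clone 2 was lower by a log2 difference of −6.27 ± 0.75 (adjusted p = 0.00911, beside 0.84% of genes called lower), and this was not called without knockout control replicate 1 (adjusted p = 0.274) or replicate 2 (0.189).

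CIITA, HLA-DRB1 and HLA-DRB5 were not called between the ATF7 clones. CIITA was at 144 and 189 in ATF7 clone 1 and at 200.2 and 188 in clone 2, against 280.4 and 369.9 in the knockout control. All 4 ATF7 knockout libraries were below both controls, and the clones differed by 0.23 ± 0.41 on the log2 scale (adjusted p = 0.994). HLA-DRB1 was at 276 and 369 in clone 1 and at 141 and 278 in clone 2, all below the control libraries at 459 and 706, with a log2 difference of −1.17 ± 0.63 for the knockout (adjusted p = 0.736). For clone 2 against the control it was −1.52 ± 0.46 (adjusted p = 0.203), and with a replicate block HLA-DRB1 was called lower there (adjusted p = 0.022). HLA-DRB5 was at 196 and 254 in clone 1, at 146 and 254 in clone 2 and at 195 and 235 in the control, and the groups overlapped (log2 −0.04 ± 0.61, adjusted p = 0.992). With all 5 controls, where 0.0231% of genes were called, none of the 4 class II genes was called for the knockout either. For clone 2 alone against all 5 controls, beside 1.98% of genes called, CD74 was called lower (log2 −6.37, limma adjusted p = 8.58e-05). In the authors' deposited table for ATF7, where 0.315% of genes were past an adjusted p of 0.05, no class II gene was.

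The third comparison asked what loss of JDP2 did. CIITA and the HLA-DRB genes were lowest in JDP2 knockout clone 1, but for both clones together no class II gene passed the test. Of 13208 genes tested 0.659% were called lower and 0.674% in either direction, and of 4 class II genes tested none was called. At an unadjusted p under 0.05 there were 2 (CIITA and HLA-DRB1), beside 2217 of the 13208 genes tested. Of the 4, edgeR called none. DESeq2, which called more genes in all than limma did, called 1, CIITA (adjusted p = 0.0284). The median log2 difference of the 4 was −1.38, beside 0.00 over all genes.

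CIITA was at 280.4 and 369.9 normalized counts in the knockout control, at 32.7 and 22.4 in JDP2 clone 1, and at 88.9 and 158 in JDP2 clone 2. All 4 JDP2 knockout libraries were below both controls, and also below the wild type (388) and the shRNA controls. The means were 75.5 ± 62.4 (SD, n = 4) and 325 ± 63.3 (n = 2), a log2 difference of −2.48 ± 0.62 (limma adjusted p = 0.112). With all 5 controls, where 7.08% of genes were called, 3.22% lower, CIITA was called lower (log2 −2.63 ± 0.42, adjusted p = 0.00764). In the authors' deposited table for JDP2, in which 4.53% of genes were lower, CIITA had a log2 fold change of −1.88 with an adjusted p of 1.96e-05, and no other class II gene was past 0.05.

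HLA-DRB1 was at 60.1 and 101 in JDP2 clone 1 and at 227 and 402 in clone 2, against 459 and 706 in the knockout control. All 4 knockout libraries were below both controls (log2 −1.88 ± 0.63, adjusted p = 0.211). HLA-DRB5 was at 73.8 and 69 in clone 1 and at 266 and 378 in clone 2, against 195 and 235, so that the clones lay on opposite sides of the control (log2 −0.50 ± 0.61, adjusted p = 0.724). CD74 was at 542 and 1121 in clone 1 and at 1057 and 1304 in clone 2, all below the control libraries at 1888 and 1632 (log2 −0.88 ± 1.59, adjusted p = 0.827). The fit shares 1 estimate of the spread over the JDP2, ATF7 and control libraries, both ATF7 clones included.

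Between the JDP2 clones, 0.136% of genes were called, 0.0303% higher in clone 2, and no class II gene was. The differences were 2.14 ± 0.38 on the log2 scale for HLA-DRB5 (adjusted p = 0.103), 2.09 ± 0.41 for CIITA (adjusted p = 0.17) and 1.94 ± 0.46 for HLA-DRB1 (adjusted p = 0.43). In each of the 3 genes both clone 2 libraries were above both clone 1 libraries. With each library left out in turn, the log2 difference was 1.88 to 2.39 for HLA-DRB5 and 1.68 to 2.50 for CIITA. Among these fits, both genes passed the threshold only without JDP2 clone 1 replicate 1. That fit leaves clone 1 with replicate 2 alone, in which 38.2% of genes differed over 2-fold from their median level. DESeq2 called all 3 genes, with adjusted p of 0.000583, 0.00869 and 0.0351, among 53 genes called. In the comparisons of each clone with the knockout control, added after the values were seen, clone 1 was called lower for CIITA (log2 −3.53 ± 0.41, adjusted p = 0.00889) and HLA-DRB1 (−2.85 ± 0.46, adjusted p = 0.0359), beside 0.371% of genes called lower. Neither was called without knockout control replicate 1 (adjusted p = 0.154 and 0.206) or replicate 2 (0.228 and 0.344), and HLA-DRB1 was also lost without either library of JDP2 clone 2 (0.0648 and 0.0656) or of ATF7 clone 1 (0.0677 and 0.0663), and with no filter (0.0698). Clone 2 was called for no class II gene, with CIITA at −1.43 ± 0.41 (adjusted p = 0.265, beside 0.538% of genes called lower). Against all 5 controls, CIITA was called lower in clone 2 as well (log2 −1.58, limma adjusted p = 0.0177, beside 0.932% of genes called). In clone 1, beside 6.98% of genes called, CIITA (−3.68, adjusted p = 2.13e-05), HLA-DRB1 (−2.46, adjusted p = 0.00661) and HLA-DRB5 (−1.71, adjusted p = 0.00848) were called lower.

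The knockouts of JDP2 and ATF7 were compared directly, so that their shared control cancels. No gene was called by limma (0% of 13208; 289 at an unadjusted p under 0.05; edgeR 0 and DESeq2 9). CIITA was lower in the JDP2 knockout by −1.64 ± 0.50 on the log2 scale (adjusted p = 0.999), and CD74 was higher by 2.42 ± 1.30 (adjusted p = 0.999), which includes ATF7 clone 2.

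Whether the knockdown effect differed from the knockout effects was tested as a difference of differences over both arms. Against the JDP2 effect, 1.76% of 13057 genes were called, 1.46% higher, and HLA-DRB1 was 1 class II gene of 5 called, with a difference of 3.66 ± 0.79 on the log2 scale (limma adjusted p = 0.0288). The 6 knockdown libraries were above the shRNA control and the 4 JDP2 libraries below the knockout control. Both knockout control libraries were themselves above both shRNA control libraries for HLA-DRB1. Against all 5 controls its log2 difference was 1.28 in the knockdown (limma adjusted p = 0.0139) and −1.49 in the JDP2 knockout (0.0573, not called). The call of the 3.66 was lost without shRNA control replicate 1 (adjusted p = 0.182) or replicate 3 (0.105) and without knockout control replicate 1 (0.0917) or replicate 2 (0.175), and with no filter (0.0523). HLA-DRB5 (2.14 ± 0.74, adjusted p = 0.126), CIITA (1.73 ± 0.76, adjusted p = 0.215), HLA-DMA (1.44 ± 1.03) and CD74 (0.98 ± 1.81) were not called. Against the ATF7 effect, where 0.276% of genes were called higher, none of the 5 was, with HLA-DRB1 at 2.95 ± 0.79 (adjusted p = 0.104).

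Over the 19 libraries, log2 levels of HLA-DRB1 and HLA-DRB5 had a Pearson correlation of 0.928 (Spearman 0.858). Reads that fit both of these near-identical genes may enter this value, which was not tested. CD74 and CIITA had a Pearson correlation of 0.222 (Spearman 0.644), which was 0.692 without the 2 libraries of ATF7 clone 2. CIITA with HLA-DRB1 was at 0.644 (Spearman 0.433). The ratio of HLA-DRB1 to HLA-DRB5 lay between 0.814 and 3.0, with its highest values in the knockout control (2.36 and 3.0) and 1.09 to 1.84 in the knockdown. The libraries share treatments and the values share size factors, so these are descriptions.

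By the same measure, over 11075 genes with a mean of at least 50, the genes most like CD74 were RENBP (Pearson 0.919, Spearman 0.419), MBNL2 (0.870 and 0.325), COL13A1 (0.860 and 0.516), FBXO44 (0.844 and 0.568) and SLC46A1 (0.842 and −0.0684). Without the 2 libraries of ATF7 clone 2 the same Pearson correlations were 0.313, 0.084, 0.444, 0.444 and −0.387. The genes most like HLA-DRA were ANLN (Pearson 0.790, Spearman 0.811), MYBL1 (0.775 and 0.773), MOB4 (0.765 and 0.747), SEC23A (0.750 and 0.768) and CENPI (0.746 and 0.783), and with 70 reads of HLA-DRA in all this order is set by few reads.

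The DNA-binding and cofactor genes of the class II promoter came next. RFX5, the subunit of the RFX complex that binds the X box, fell in the JDP2 knockout, and it was the 1 gene of 9 promoter factors tested that was called there, beside 0.659% of all genes called lower, while none of the 9 was called in the IRF2BP2 or ATF7 comparisons. RFX5 was at 2458 and 3565 normalized counts in the knockout control, at 786 and 572 in JDP2 clone 1, at 889 and 1200.3 in JDP2 clone 2, and at 1216, 1221, 1024 and 1069.5 in the ATF7 knockout libraries. All 8 knockout libraries were below both controls and below the wild type at 1798. The log2 difference was −1.83 ± 0.30 for JDP2 (limma adjusted p = 0.0188) and −1.39 ± 0.30 for ATF7 (adjusted p = 0.1). In the direct comparison of these knockouts none of the 9 factors was called, so a fall particular to JDP2 was not shown. The JDP2 call was lost without knockout control replicate 1 (adjusted p = 0.17), knockout control replicate 2 (0.401) or JDP2 clone 2 replicate 1 (0.061). The knockdown effect on RFX5 differed from the JDP2 effect by 2.11 ± 0.41 (adjusted p = 0.0185), a call lost without any of the 4 control libraries (0.0527 to 0.176). The median over the 9 factors, with RFXANK, RFXAP, the NF-Y subunits, CREB1, ATF1 and CREM, was −0.21 in the JDP2 knockout beside 0.00 over all genes.

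Of 12 genes of interferon gamma signalling to CIITA, none was called in the knockdown, with a median log2 difference of 1.06 beside −0.03 over all genes. The lowest adjusted p, in genes named after their values were seen, were those of IFNGR1, a receptor chain (1.55 ± 0.38, adjusted p = 0.0652), and IRF2, an antagonist of IRF1 that also acts at the CIITA promoter (1.33 ± 0.34, adjusted p = 0.0722). IRF1, an activator of CIITA, was at 1.34 ± 0.39 (adjusted p = 0.129). The difference of the knockdown effect from the knockout effects was called for IRF2, at 2.42 ± 0.44 against JDP2 (adjusted p = 0.0127) and 2.26 ± 0.44 against ATF7 (adjusted p = 0.0291). The call against JDP2 was lost without shRNA control replicate 1 (0.142) or either knockout control library (0.0527 and 0.114), and that against ATF7 without any of the 4 control libraries (0.118 to 0.302) or without ATF7 clone 1 replicate 1 (0.0584), clone 1 replicate 2 (0.0574) or clone 2 replicate 2 (0.05), and with no filter (0.0582).

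Among the 12 genes of antigen processing and trafficking tested of 14 listed, 1 rose in the knockdown, beside 1.54% of all genes. CTSS, the protease that trims the invariant chain, was at 767 and 1303 in the shRNA control, at 1911, 3869 and 8329.5 with shRNA 1 and at 3333, 4563 and 4546 with shRNA 2. Every knockdown library was above both controls (log2 2.01 ± 0.46, limma adjusted p = 0.0484). The call was lost without shRNA control replicate 1 (0.663), shRNA control replicate 3 (0.169), shRNA 1 replicate 2 (0.0951) or any library of shRNA 2 (0.0725, 0.0989 and 0.0813), and with a pseudocount of 5 (0.0524), no filter (0.0616) or edgeR (0.0951).

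Of the 4 tested genes of surface partners, 1 rose in the knockdown, beside 1.54% of all genes: CD86, the costimulatory ligand shown beside class II. It was at 11.9 and 11.2 in the shRNA control, at 191, 502 and 2006 with shRNA 1 and at 252, 314 and 529 with shRNA 2, with no overlap (log2 5.16 ± 0.68, limma adjusted p = 0.00356; 0.0648 without shRNA control replicate 1). CD4, the coreceptor that binds class II and that monocytes carry too, fell in ATF7 clone 2: it was at 617 and 1200.4 there and at 4268 and 5752 in clone 1 (log2 −2.52 ± 0.40, adjusted p = 0.0348). The monocyte and endosome marker CD68 (−2.08 ± 0.30, adjusted p = 0.0198) and the lysosomal membrane protein LAMP1 (−2.0 ± 0.34, adjusted p = 0.0492) were also lower in clone 2 than in clone 1. The calls of CD4 and CD68 were lost without either knockout control library, either library of JDP2 clone 2 or of ATF7 clone 1, or ATF7 clone 2 replicate 1 (adjusted p = 0.0567 to 0.358), and that of LAMP1 without any of these or ATF7 clone 2 replicate 2 (0.097 to 0.454). With edgeR, CD4 (0.0797) and LAMP1 (0.0864) were not called, nor was LAMP1 with no filter (0.224).

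**Figure D4:**
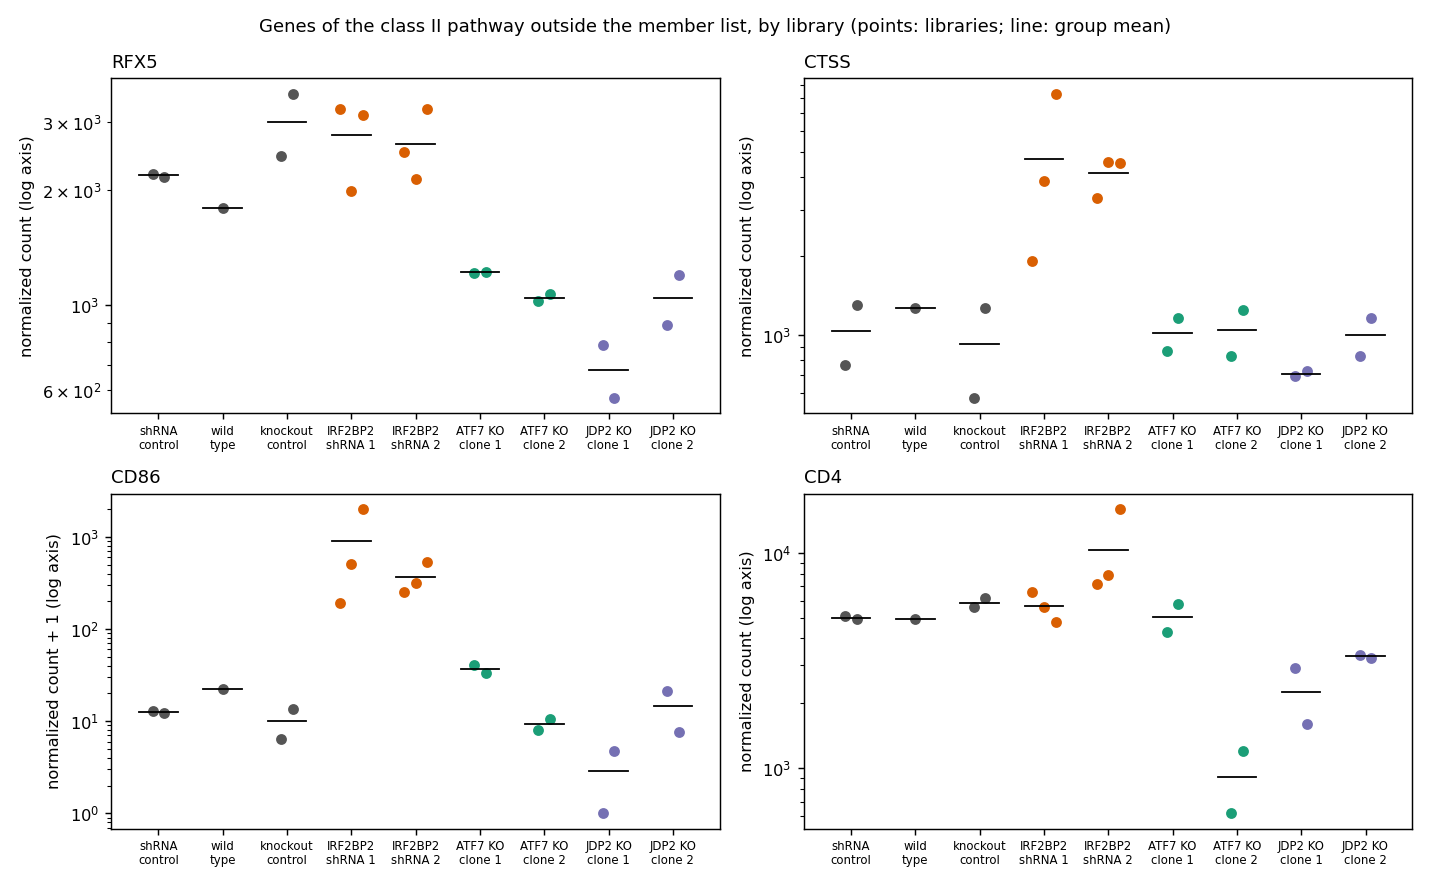
Normalized counts (log axis; CD86 as count + 1) of RFX5, CTSS, CD86 and CD4 by group, with 1 point per library and a line at the group mean. RFX5 is lower in all 8 knockout libraries than in the knockout control, CTSS and CD86 are higher in all 6 knockdown libraries than in the shRNA control, and CD4 is lowest in ATF7 knockout clone 2.

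Markers of other class II-bearing cells were followed beside these results. In the knockdown, 2 of 12 monocyte markers tested were called higher, beside 1.54% of all genes (ITGAM, log2 3.17 ± 0.46, adjusted p = 0.00533; FCER1G, 3.22 ± 0.49, adjusted p = 0.00562) and 0 lower, with a median of 1.51. Both were lost without shRNA control replicate 1 (0.131 and 0.151) or replicate 3 (0.0503 and 0.0558). Without shRNA 2 replicate 3, ITGAM (log2 2.88), FCER1G (3.16), ITGAX (2.78) and CD86 (5.11) remained called. The summed level of the 15 dendritic cell markers was 2593 to 2943 in the shRNA control and 6291 to 22974 in the knockdown, of which ITGAX, an integrin that monocytes also carry, made up the largest part in the highest library (21272). ITGAX was the 1 of 5 dendritic markers tested that was called (3.11 ± 0.55, adjusted p = 0.0126; 0.362 without shRNA control replicate 1 and 0.0546 with edgeR). The 7 B cell markers summed to 1530.2 to 1689.8 in the shRNA control and 662 to 2298 in the knockdown, with none called among 4 tested, and MS4A1 was at 0 in 5 of the 6 knockdown libraries. The 6 T cell markers summed to 23.4 to 40.8 in the shRNA control and 29.2 to 97 in the knockdown. The part of these markers in the rise of HLA-DRB5 was not tested.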

How the data were processed

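RNA-seq was analysed in 19 libraries of THP1 cells. The labels name 2 further libraries, an shRNA control and a wild type, and mark both as low quality. These have no column of signal values and were not analysed here. The deposited signal values are gene counts that the authors divided by size factors, with featureCounts, DESeq2 and hg38 named, without versions, in the submitters' processing notes. The authors' deposited tables of comparisons hold log2 fold changes, p-values and a test score. Each signal value was a whole multiple of a step per library (100% of 388037 values within 0.01), so reads were recovered by division.

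Genes with a mean of at least 10 normalized counts across the libraries fitted together entered limma 3.58.1 (trend), on log2(normalized count + 1) in R 4.3.3, with Benjamini-Hochberg adjustment over all genes tested and a threshold of 0.05. Fold changes on this scale understate those of low genes. The knockdown and knockout arms were fitted separately, and together for differences of effects. Alternatives were a pseudocount of 5, no filter, edgeR 4.0.16 (quasi-likelihood) and DESeq2 1.42.0 on recovered reads, TMM scaling, a replicate block, summed HLA-DRB reads, all 5 controls, and each library left out. Leaving out the 3 libraries far from the median, and testing each hairpin and clone against its control, were chosen after seeing the data. Each fit lost only the far libraries it held. These were IRF2BP2 shRNA 1 replicate 3 and shRNA 2 replicate 3 in the knockdown arm. In the knockout arm it was JDP2 knockout clone 1 replicate 2, the same fit as leaving that library out in turn. No 2 libraries agreed within sampling noise. Genes named by rule are the 10 class II genes, the targeted genes, up to 4 called genes of each list and the 5 genes most like CD74 and HLA-DRA. Other genes of the lists are named as members or were picked after their values were seen (IFNGR1, IRF1, CD14, MS4A1, HLA-DQA1, HLA-DOB and the class II loci at 0). The genes and lists were chosen with earlier results of these data known. Limits of 3 reads for a count of 0 cover counting error only.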

Additional observations from a re-analysis of the deposited data

Results flagged for a closer look

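Over 40 checks of 4 to 6 libraries for a single library far from the rest, 13 met the limit, and most rest on a few reads. A chance rate of about 1 in 20 does not hold for such low counts. Where all other libraries are at 0, a single read is enough to meet the limit. HLA-DRA was at 2.16 normalized counts in ATF7 knockout clone 1 replicate 1 and at 4.49 in JDP2 knockout clone 2 replicate 2, with the other libraries of each knockout at 0. HLA-DPA1 was at 4.63 in ATF7 knockout clone 2 replicate 1. HLA-DPB1 was at 0.995 in shRNA control replicate 1, 1.01 in IRF2BP2 shRNA 2 replicate 2 and 4.31 in ATF7 knockout clone 1 replicate 1. HLA-DQB1 was at 10.8 in IRF2BP2 shRNA 1 replicate 3, 25.5 in ATF7 knockout clone 2 replicate 1 and 33.6 in JDP2 knockout clone 1 replicate 2. HLA-DMA was at 16.8 in JDP2 knockout clone 1 replicate 2, and HLA-DMB was at 1.28 in JDP2 knockout clone 2 replicate 1.

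Only 2 of the 13 concern genes at over 100 normalized counts. HLA-DRB1 was at 2372 in IRF2BP2 shRNA 2 replicate 3, the library labelled as a knockdown with the highest IRF2BP2 message of its arm, and CIITA was lowest among the 5 controls in knockout control replicate 1, at 280.4.

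Effects that differed between groups by their own test were CD74 between the ATF7 knockout clones (log2 −5.94, limma adjusted p = 0.00863, lower in 2 of 2 libraries) and HLA-DRB1 between the IRF2BP2 knockdown effect and the JDP2 knockout effect (log2 3.66, limma adjusted p = 0.0288).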

How the results depend on the processing

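Counts of called genes moved more than directions did. For the IRF2BP2 knockdown the 228 genes called became 124 with edgeR, 682 with DESeq2 and 1561 with all 5 controls. They became 1251 without its 2 far libraries (of the 3 farthest from the median), and 11 to 609 with 1 library left out. For the ATF7 knockout 33 became 19 with no filter, 223 with DESeq2, 74 with the replicate block, 3 with all controls, 98 without the far libraries and 0 to 98 with 1 left out. For the JDP2 knockout 89 became 53 with no filter, 526 with DESeq2, 161 with the block, 919 with all controls and 0 to 125 with 1 left out. Between JDP2 and ATF7 knockouts 0 became 9 with DESeq2. Between hairpins 0 became 25 with DESeq2, 1 without the far libraries and 0 to 1 with 1 left out. Between ATF7 clones 40 became 22 with no filter, 26 with edgeR, 219 with DESeq2, 93 with the block, 198 without the far libraries and 17 to 198 with 1 left out. Between JDP2 clones 18 became 53 with DESeq2 and 12 to 266 with 1 left out. For the knockdown against the ATF7 effect 44 became 0 with no filter, 358 with DESeq2, 74 with TMM, 301 with the block, 359 without the far libraries and 0 to 96 with 1 left out. Against the JDP2 effect 230 became 74, 1015 with DESeq2, 874 with the block, 505 without the far libraries and 1 to 430. Class II genes called higher in the knockdown (1) were 0 with no filter, edgeR or the block, 2 with DESeq2, TMM or without the far libraries, 3 with all controls and 0 to 2 with 1 left out. HLA-DRB5 had an adjusted p of 0.0547 with no filter, 0.0673 with edgeR and 0.112 with the replicate block. Those called lower in the JDP2 knockout (0) were 1 with DESeq2 or all controls. Those higher in JDP2 clone 2 (0) were 3 with DESeq2, 2 with the block and 0 to 2 with 1 left out. Those lower in ATF7 clone 2 (1) were 0 to 1. For the knockdown against the ATF7 effect 0 became 1 with DESeq2, and against JDP2 1 became 0 with no filter and 0 to 1 with 1 left out. Every reversal was of an uncalled value. CD74 in the knockdown was −0.03, −0.01 and −0.11 without shRNA control replicate 3, shRNA 2 replicate 2 or replicate 3, and up to 0.41 with 1 left out. HLA-DRB5 in the ATF7 knockout was 0.00538 with edgeR and 0.09 and 0.12 with 1 left out, and between ATF7 clones −0.61 to 0.19. HLA-DRB1 between hairpins was −0.17 without the far libraries and −0.18 without shRNA 2 replicate 3, and up to 0.69. CIITA for the knockdown against the ATF7 effect was −0.11, −0.01 and −0.01, and up to 0.29, with 1 left out. Against the control, HLA-DRB5 was −0.53 (summed), −0.0822 (all controls), −0.07 and −0.12 in ATF7 clone 1, −0.55 to 0.25 in ATF7 clone 2 and −0.34 (summed) in JDP2 clone 2. TMM moved the median of a library by up to 0.142 on the log2 scale. Same-numbered libraries deviated together (correlation over 0.1) in 3 of 7 knockdown and 10 of 20 knockout pairs. Differently numbered libraries did so in 4 of 14 knockdown and 8 of 20 knockout pairs. With 2 libraries per knockout group the deviations mirror each other, so this check cannot settle whether the numbers pair libraries. The main fits used no pairing, and the replicate block is given as an alternative. The cause of these changes was not tested.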
